A study of Rattus norvegicus with 12 samples.

Results

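The rMC-1 cell line was compared with primary cultures of Müller cells, which are glia of the retina, by RNA sequencing. Libraries were taken by their cell type label alone, which gave 3 rMC-1 and 4 primary libraries, 7 of the 12 in the series. The other 5 came from SIRMu-1, a Müller cell line that became immortal without an introduced gene, and entered the fit, where they bear on the filter, the scaling and the shared estimate of spread, and are compared with rMC-1 in 1 paragraph. All cells carried the strain label Sprague-Dawley. Primary cultures came from rats of postnatal day 2-4 and were used at passage 4 (replicates 1 and 2) or 3 (replicates 3 and 4), in 20% serum with amphotericin B (2.2 mg/L) and gentamicin (87 mg/L). The rMC-1 cultures came from adult rats and were used at passage 23 (replicate 1) or 26 (replicates 2 and 3), in 10% serum without antibiotics or antifungals. Both were grown in MEM with L-glutamine (2 mM) and high glucose (25 mM). The rMC-1 line was immortalized with the large T antigen of SV40, so all 3 libraries come from 1 line and their spread is not that between lines. Immortalization, passage, serum, drugs and donor age differ together between the groups and cannot be told apart in any result below.

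Müller glia span the retina from its inner to its outer surface, take up the glutamate that neurons release and turn it into glutamine, and regulate potassium and water. Large T antigen binds the retinoblastoma (Rb) family of proteins. The Rb family holds back E2F factors, which drive genes of DNA replication, and through the DREAM complex the genes of mitosis. DREAM reaches mitotic genes through a promoter element called CHR, often near a CCAAT box.

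Primary libraries held 22582345 to 29812705 gene counts each and rMC-1 libraries 27351014 to 38125630. In primary cultures 12.8% to 22.9% of these fell on the 10 most-read genes, in rMC-1 4.01% to 4.31%, and TMM factors (edgeR's scaling for such differences) were 0.839 to 1.006 and 1.255 to 1.284. Levels are CPM (the TMM-scaled share of the library) throughout. They are not divided by gene length, so a gene is compared only with itself. Of 11321 genes tested, edgeR called 3614 higher in rMC-1 (31.9%) and 4403 lower (38.9%) at an adjusted p under 0.05. The groups did not overlap for 70.9% of genes (32.7% with rMC-1 higher, 38.2% with rMC-1 lower). Changes of at least 2-fold were called in 18.0% (higher) and 27.9% (lower). These shares are the background against which every count below is read. The median log2 fold change of all genes was -0.15, and 0.32 when libraries were scaled by their totals. Of the called genes 45.1% were higher, against 61.9% with library totals. Small changes therefore depend on the scaling. In bulk RNA, fewer cells of a type and less RNA per cell cannot be told apart.

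**Figure D1:**
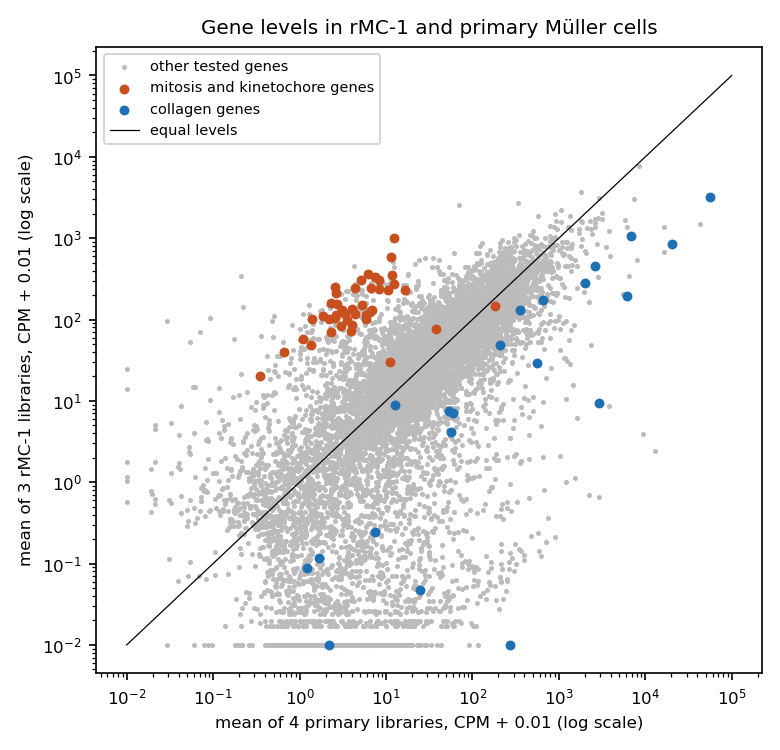
Mean CPM of each tested gene in the 4 primary libraries (x axis) against the 3 rMC-1 libraries (y axis), both on a log scale after adding 0.01 CPM. Mitosis genes other than Zwint lie above the diagonal and collagen genes below it, and the lower edge of the plot holds genes with no rMC-1 counts, such as Col15a1.

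Promoter sequences are shown first for the genes that rose most as groups. They are the 120 bases before the start of the gene, 5′ to 3′ on the gene's strand, from RefSeq on GRCr8, a later build than the rn6 used for the counts. In 4 mitosis genes capitals mark CHR (TTTGAA) and CCAAT on either strand. On GRCr8 they lie at Cdk1 chr20:19265173-19265292 (plus strand), Ccnb2 chr8:79981659-79981778 (minus strand), Cdc20 chr5:137255800-137255919 (minus strand) and Kif23 chr8:71320585-71320704 (minus strand).
Cdk1: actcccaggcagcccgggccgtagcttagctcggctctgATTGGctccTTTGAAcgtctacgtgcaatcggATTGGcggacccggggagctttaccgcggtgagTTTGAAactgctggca
Ccnb2: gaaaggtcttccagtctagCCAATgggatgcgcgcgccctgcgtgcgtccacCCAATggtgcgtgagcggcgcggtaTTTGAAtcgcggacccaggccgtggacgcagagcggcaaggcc
Cdc20: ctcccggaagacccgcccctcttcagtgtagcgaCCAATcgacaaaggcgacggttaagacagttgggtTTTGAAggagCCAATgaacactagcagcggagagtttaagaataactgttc
Kif23: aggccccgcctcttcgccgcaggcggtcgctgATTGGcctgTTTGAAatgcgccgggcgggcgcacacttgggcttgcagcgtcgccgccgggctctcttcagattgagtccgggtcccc
In 4 replication genes capitals mark an E2F site, searched as TTTCCCGC, TTTGGCGC, TTTCGCGC or TTTGCCGC on either strand. They lie at Mcm2 chr4:122918095-122918214 (minus strand), Mcm5 chr19:13488693-13488812 (plus strand), Mcm7 chr12:22163179-22163298 (minus strand) and Gins1 chr3:160184800-160184919 (plus strand).
Mcm2: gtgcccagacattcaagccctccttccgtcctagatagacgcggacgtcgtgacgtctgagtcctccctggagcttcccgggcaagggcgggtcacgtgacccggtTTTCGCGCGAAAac
Mcm5: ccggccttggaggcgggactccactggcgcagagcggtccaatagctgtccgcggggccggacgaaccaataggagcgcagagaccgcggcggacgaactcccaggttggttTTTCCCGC
Mcm7: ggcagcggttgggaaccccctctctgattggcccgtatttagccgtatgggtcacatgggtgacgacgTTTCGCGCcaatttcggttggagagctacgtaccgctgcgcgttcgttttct
Gins1: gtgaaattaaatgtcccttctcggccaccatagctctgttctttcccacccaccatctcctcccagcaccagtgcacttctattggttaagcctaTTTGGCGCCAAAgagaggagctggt
A promoter window of 300 bases (250 before and 50 after the start) was matched to 8741 of the 11321 genes tested, 524 of them by a synonym. CHR letters were in 26 of 34 windows of mitosis and kinetochore genes (76.5%), against 11.3% of all windows. Among genes called higher the share was 13.3% and among genes called lower 10.3%. CCAAT was in 26 of the 34 mitosis windows and in 37.3% of all. An E2F site was in 17 of 35 windows of replication genes (48.6%), in 1 of the 34 mitosis windows and in 4.13% of all. For genes called higher it was 6.86% and for genes called lower 2.28%. Some sites lie after the start. With only the 250 bases before it, CHR was in 50% of mitosis windows and E2F in 25.7% of replication windows, against 9.99% and 3.29% of all. The shares describe letters in a window. No binding was measured.

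**Figure D2:**
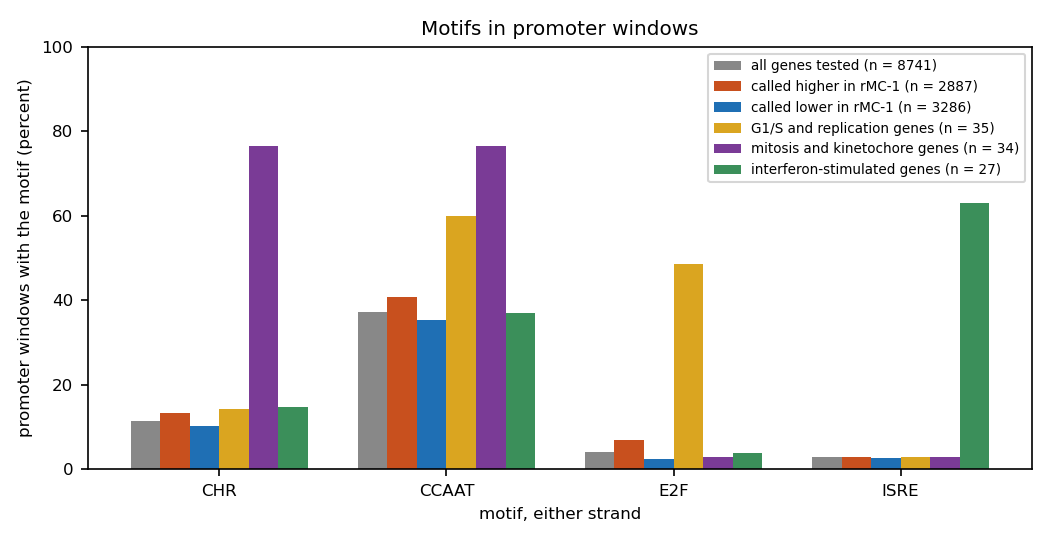
Share of promoter windows (percent, from 0) that hold each motif on either strand, for all genes tested, genes called higher or lower in rMC-1 and 3 gene lists. CHR and CCAAT stand highest in mitosis genes, E2F sites in replication genes and ISRE in interferon-stimulated genes.

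Genes of DNA replication rose as a block. All 46 tested genes of the G1/S and replication list were called higher, with a median log2 fold change of 4.20 against -0.15 for all genes. Mcm2, a subunit of the replicative helicase, held 28.1, 29.6, 30.0 and 24.3 CPM in the 4 primary libraries and 559, 569 and 567 in rMC-1, which is 4.33 ± 0.25 on the log2 scale (edgeR adjusted p = 9.41e-08). The groups lay far apart and the rMC-1 libraries close together. Here and below a value followed by ± and its standard error is a log2 fold change, rMC-1 minus primary, from the edgeR fit. The other subunits measured ran from 4.45 ± 0.43 (Mcm6) to 5.41 ± 0.30 (Mcm7) and 6.73 ± 0.60 (Mcm5). Of genes that license or fire origins, Cdt1 rose by 6.20 ± 0.53, Orc1 by 5.88 ± 0.57 and Cdc6 by 5.72 ± 0.45. Among polymerase genes Pole rose by 5.05 ± 0.34 and Pola1 by 4.07 ± 0.31, and the sliding clamp gene Pcna by 3.74 ± 0.23. The smallest rise was that of Ccne1, cyclin E1, by 0.93 ± 0.35, and it was the only member whose libraries overlapped between groups. Cyclin E2 (Ccne2) rose by 4.11 ± 0.35 and cyclin A2 (Ccna2) by 6.01 ± 0.56. The call was lost when 1 library was left out for Ccne1 (0.79 without primary replicate 2, 0.85 without primary replicate 4, 0.69 without rMC-1 replicate 1).

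Of 43 mitosis and kinetochore genes, 42 rose and none fell (median 5.17). Cdk1, the kinase that drives entry into mitosis, held 11.2, 7.00, 7.20 and 4.10 CPM in primary cultures and 319.9, 329.6 and 361 in rMC-1 (5.51 ± 0.50). Its partner genes Ccnb1 and Ccnb2 rose by 5.81 ± 0.47 and 5.17 ± 0.51. Cdc20, an activator of the anaphase-promoting complex, rose by 4.72 ± 0.46, the checkpoint kinase gene Bub1b by 6.32 ± 0.51 and Birc5, of the chromosomal passenger complex, by 6.18 ± 0.50. Foxm1, a transcription factor of the mitotic program, went from 6.81 to 132 CPM. Zwint, a kinetochore gene, was the exception at 183 and 146 CPM (-0.32 ± 0.22, edgeR adjusted p = 0.203). Cdc25c (1.45 ± 0.24) and Bub3 (1.04 ± 0.12) moved least of those called. Lmnb1, a nuclear lamina gene that is low in senescent cells and stands in another list, rose by 5.06 ± 0.44.

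The Rb family was measured only as transcripts. Rb1 stood at 68.3 CPM in primary cultures and 77.6 in rMC-1 and did not pass (0.18 ± 0.32, edgeR adjusted p = 0.612). Rbl1, which encodes the family member p107 and is itself an E2F target, held 5.17, 7.82, 6.04 and 3.97 CPM in primary cultures and 92.7, 108 and 102 in rMC-1 (4.13 ± 0.39). Rbl2, encoding p130, went the other way, from 69.3 to 36.2 CPM (-0.94 ± 0.21). All 3 D cyclins, the growth factor sensors that act upstream of Rb, fell. Ccnd2 held 242, 280.4, 330.0 and 291 CPM in primary libraries and 0.114, 0.103 and 0.105 in rMC-1, an almost complete loss (-11.33 ± 0.31, edgeR adjusted p = 1.16e-09). Ccnd1 changed by -2.15 ± 0.38 and Ccnd3 by -1.92 ± 0.18. The cyclin-dependent kinase genes did not follow them. Cdk2 rose by 4.01 ± 0.26, Cdk4 by 0.81 ± 0.12, and Cdk6 stood at 26.4 and 28.2 CPM (0.09 ± 0.32). Among the E2F genes the largest rise was that of the repressor E2f7, from 0.490 to 61.8 CPM, with E2f1 at 3.00 ± 0.25 and E2f4, the DREAM member, at 2.03 ± 0.11. Of the 18 tested genes of this list, 10 rose and 4 fell (median 0.94). Other settings ended the call of Rbl2 (-0.45 with library totals).

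Genes of growth arrest, the damage response and cell death went in both directions. Of 31 tested in this list, 15 fell, 9 rose and the other 7 were not past the threshold (median -0.68). With library totals 13 fell and 12 rose (median -0.21), and without primary replicate 3 the median was -0.25. Of all genes tested, 38.9% fell. Cdkn1a, which encodes the arrest protein p21, held 910.1, 991, 845 and 1963 CPM in primary libraries and 32.6, 38.0 and 30.1 in rMC-1 (-5.13 ± 0.45, edgeR adjusted p = 1.70e-06). Primary replicate 4 had the highest level, and the lowest primary library was still far above rMC-1. Ccng1, cyclin G1, went from 1206 to 95.8 CPM (-3.65 ± 0.28), the nuclease gene Aen from 99.1 to 7.84 (-3.66 ± 0.24), and Zmat3 changed by -2.54 ± 0.24. Mdm2, which encodes a ubiquitin ligase, fell (-2.13 ± 0.41). The death receptor gene Tnfrsf10b changed by -5.53 ± 0.57, and by -6.63 without rMC-1 replicate 1. Fas changed by -1.93 ± 0.40 and Phlda3 by -1.53 ± 0.22. Other genes of the list did not move in this direction. Bbc3, which encodes the death protein PUMA, stood at 12.5 and 15.4 CPM (0.31 ± 0.32). The repair gene Ddb2 rose by 1.91 ± 0.36, Fdxr by 2.76 ± 0.23 and Ckap2, also a mitosis gene, by 3.19 ± 0.36.

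**Figure D3:**
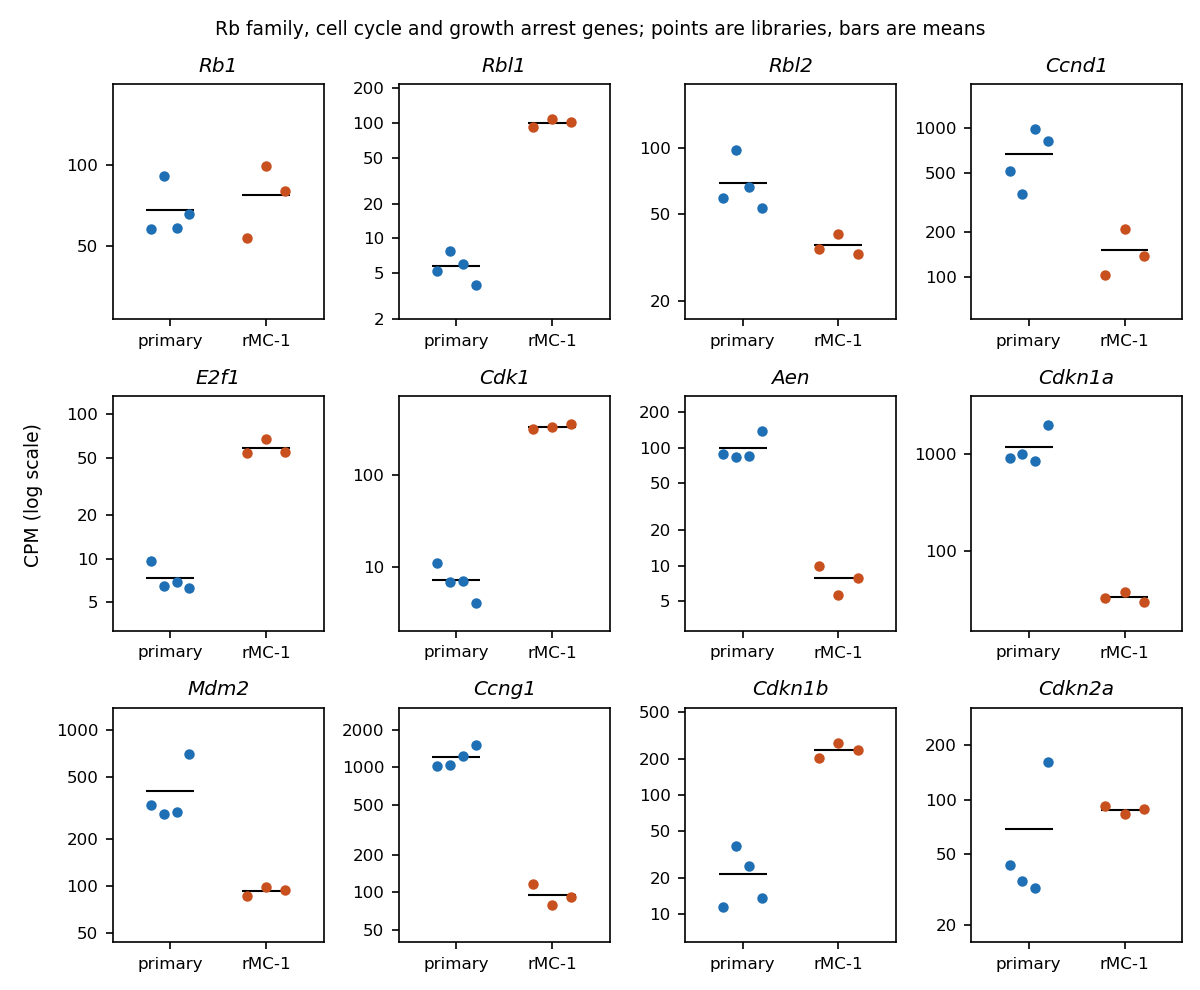
CPM of 12 genes of the Rb family, cell cycle and growth arrest in each of the 4 primary and 3 rMC-1 libraries, on a log scale, with a bar at the mean of each group. The 2 groups overlap for Rb1 and Cdkn2a and are apart for the other 10.

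Of 20 CDK inhibitor and immortalization genes, 9 rose, 7 fell and 4 did not pass. Cdkn1b, encoding p27, rose from 11.6, 37.3, 25.2 and 13.8 CPM to 205, 272 and 239 (3.44 ± 0.37) and Cdkn2c, encoding p18, by 4.35 ± 0.37. Cdkn2b, encoding p15, fell from 375 to 116 CPM (-1.69 ± 0.50). Cdkn2a, whose products are p16 and p19ARF, held 43.5, 35.4, 32.1 and 163 CPM in primary cultures and 92.2, 83.1 and 88.5 in rMC-1. Primary replicate 4 lay above the rMC-1 range and the other 3 below it, and the change did not pass (0.36 ± 0.46, edgeR adjusted p = 0.497). Without that library it was 1.24 (adjusted p = 1.86e-05). Tert, the catalytic subunit of telomerase, was lower in the immortal line, 0.973 to 3.26 CPM in primary cultures against 0.0790 to 0.412 (-2.67 ± 0.58). The telomere cap genes Terf1 and Pot1 rose by 2.82 ± 0.29 and 2.29 ± 0.17, and Dkc1, which stabilizes the telomerase RNA, by 1.51 ± 0.22. Myc went from 20.0 to 101 CPM (2.34 ± 0.28).

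Repair of DNA breaks and stalled forks was represented by 39 tested genes, of which 33 rose and 2 fell (median 2.74). Brca1, which directs homologous recombination, held 4.81, 5.05, 3.98 and 4.50 CPM in primary cultures and 168, 218 and 206 in rMC-1 (5.43 ± 0.38). Rad54l, of the same pathway, rose by 6.39 ± 0.47 and Fancd2 of the Fanconi pathway by 5.62 ± 0.40. Of the end joining genes, Lig4 fell (-1.42 ± 0.27), Xrcc5 (Ku80) did not pass (0.22 ± 0.14) and Xrcc6 (Ku70) rose by 1.06 ± 0.12. Fam111a, which encodes a protease known as a binding partner of large T antigen, was among the 10 most-read genes of rMC-1. It held 98.6, 78.2, 77.6 and 25.7 CPM in primary cultures and 2323, 2675 and 2586 in rMC-1 (5.17 ± 0.62, edgeR adjusted p = 1.70e-05). Nucleic acid sensor genes were mixed, with 10 of 23 higher and 8 lower. Tmem173, which encodes STING, rose from 0.901 to 13.8 CPM (3.94 ± 0.49), and Tlr3 fell from 25.9 to 3.44 (-2.91 ± 0.48). Leaving out 1 library made a call of Xrcc5 (0.41 without rMC-1 replicate 2). Other settings made a call of Xrcc5 (0.70 with library totals, 0.34 with libraries of one file-name code summed).

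Genes of DNA methylation and Polycomb silencing were higher in 16 of 23 cases and lower in 1 (median 1.02). Uhrf1, which brings the maintenance methyltransferase to replicated DNA, rose from 2.99 to 208 CPM (6.12 ± 0.53), and that enzyme's gene Dnmt1 by 2.98 ± 0.27. Ezh2, the methyltransferase of Polycomb complex 2, rose by 4.68 ± 0.34 and Cbx2 of complex 1 by 4.10 ± 0.22.

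Some developmental regulators with no or low levels in primary cultures were higher in rMC-1. Cdx2, a homeobox factor of trophectoderm and intestine, had 2 counts over all primary libraries and 96.5, 89.5 and 97.8 CPM in rMC-1, the largest rise among genes of at least 50 CPM. Foxa2, a forkhead factor of endoderm and floor plate, held 53.6, 45.0 and 61.5 CPM in rMC-1, with all of its 4 primary counts in replicate 4. The reproductive homeobox gene Rhox5 went from 0.0441 to 0.513 CPM to 114 to 169. Outside the rule for named genes, and chosen after its values were seen, Gata4 went from 0.0523 to 14.9 CPM. The HOX and position list had 9 higher and 8 lower of 22 tested (median 0.41), near the shares of all genes (31.9% and 38.9%). Of its 11 genes with a mean of at least 10 CPM in either group, 3 rose and 4 fell. The 9 rises were those of 8 genes of the Hoxa, Hoxb and Hoxc clusters and of Meis2. Hoxb9 had no counts in any primary library and 24.2, 25.7 and 24.1 CPM in rMC-1, at least 802-fold higher over the floor of 3 counts for the group. Hoxc4 went from 0.848 to 25.0 CPM, Hoxc10 from 0.0331 to 8.74 and Hoxc9 from 0.0110 to 4.56. All primary counts of Hoxc10 (3) and Hoxc9 (1) were in replicate 4. In the other direction Emx2, a forebrain and eye homeobox gene, held 24.4, 13.2, 10.0 and 32.1 CPM in primary cultures and had no counts in rMC-1, at least 802-fold lower. Dlx5 was at least 388-fold lower and Hoxd13 went from 0.948 to 0.0183 CPM. Without 1 library the size moved by over 1.5-fold for Rhox5 (9.36 in all libraries, 10.28 without primary replicate 1) and Hoxc4 (4.89 in all libraries, 5.95 without primary replicate 3).

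Other genes with the largest rises were not transcription factors. Smpd3, a neutral sphingomyelinase, held 0.158, 0.0748, 0.134 and 0.441 CPM in primary cultures and 427, 255 and 357 in rMC-1. Asb12 went from 0.0817 to 104 CPM, the tetraspanin gene Tspan8 from 0.0613 to 70.3, the glycosyltransferase gene B3gnt5 from 0.165 to 57.2, the MYC and E2F target Cdca7 from 0.501 to 109.7 and the protease inhibitor gene Serpina3n from 0.469 to 96.6. In each of these the highest primary library lay below the lowest rMC-1 library, as the rule for choosing them required. Of 8 epithelial genes tested, 5 rose and 1 fell (median 2.74). Grhl2, a factor of epithelial identity, had no counts in primary cultures and 9.09, 15.1 and 17.5 CPM in rMC-1 (at least 458-fold). The keratin gene Krt8 rose from 5.15 to 66.2 CPM (3.69 ± 0.47) and the tight junction gene Tjp3 from 0.201 to 21.4. The keratin partner of Krt8, Krt18, had 4 and 0 counts, and the defining genes Cdh1 (1.19 and 0.233 CPM) and Epcam (2 and 1 counts) stayed near 0 in both groups. Whether reads of Krt18 were set aside as mapping to several places was not tested. The size moved by over 1.5-fold with a library left out for Smpd3 (10.75 in all libraries, 11.43 without primary replicate 4) and B3gnt5 (8.40 in all libraries, 9.01 without primary replicate 4). In other settings a call was made of Cdh1 (-2.29 with only the 7 libraries compared, -2.60 with libraries of one file-name code summed).

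Müller glia markers were mostly lower. Of 29 tested, 18 fell and 6 rose (median -1.91). Primary replicate 4 held the highest primary level of 16 of them, and without it 16 fell and 8 rose. With library totals 14 fell and 8 rose. Dkk3, a secreted protein of Müller cells, went from 1224 to 0.996 CPM, Timp3 from 329 to 0.567 and Apoe, the lipid carrier, from 224 to 5.75. Car2, a glial carbonic anhydrase, had 725 primary counts and none in rMC-1 (at least 302-fold lower). Sox9 had 40.3, 47.5, 83.8 and 37.2 CPM in primary libraries and 0.0285, 0 and 0.0790 in rMC-1. The markers that rose were Rlbp1, Lhx2, Hes1, Notch1, Pax6 and Dbi. Rlbp1 had the largest rise of the list (log2 fold change 3.76), with Lhx2 at 3.59 and Dbi at 2.15. Lhx2 and Pax6 also stand in the progenitor list. Of 13 progenitor and eye-field genes, 6 rose and 4 fell (median 0.09). With no filter 6 rose and 8 fell of 18 (median -1.48). The median was -0.62, -0.60 and -0.58 with rMC-1 replicate 1, 2 or 3 left out, and -0.46 with libraries of one file-name code summed. Pax6, needed for eye formation, held 12.7, 3.82, 1.39 and 24.5 CPM in primary cultures and 67.4, 82.6 and 74.5 in rMC-1 (2.82 ± 0.74, or 3.64 without primary replicate 4). Six3 went from 2.11 to 12.9 CPM and Meis2 from 4.39 to 77.6 (4.15 ± 0.47, or 4.83 without primary replicate 3). Sox2 held 1.10, 0.487, 0.224 and 8.15 CPM in primary cultures and 18.0, 11.9 and 14.7 in rMC-1. The groups did not overlap, but primary replicate 4 stood apart and the change missed the threshold (2.58 ± 1.07, edgeR adjusted p = 0.0596). Without that library it was 4.60 (adjusted p = 0.000348). Six2 fell from 7.73 to 0.00878 CPM and Eya2 from 17.6 to 0.0183, while Rax had 56 and 0 counts and Otx2 none. Notch1 rose by 2.93 ± 0.48 and its target Hes1 by 1.36 ± 0.49. Markers that define the glial role in potassium and water balance, Kcnj10 (13 and 9 counts) and Aqp4 (2 and 0), were near absent from both groups. With 1 library left out there was no call for Hes1 (1.14 without primary replicate 1, 1.22 without primary replicate 2, 1.09 without rMC-1 replicate 2). A shift of over 1.5-fold on leaving out 1 library was seen for Dkk3 (-10.30 in all libraries, -11.80 without rMC-1 replicate 1), Sox9 (-10.45 in all libraries, -9.72 without rMC-1 replicate 2) and Six3 (2.61 in all libraries, 3.65 without primary replicate 4). The call did not hold in other settings for Six3 (2.56 with libraries of one file-name code summed). Other settings made a call of Sox2 (2.58 with DESeq2, 2.95 with library totals).

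**Figure D4:**
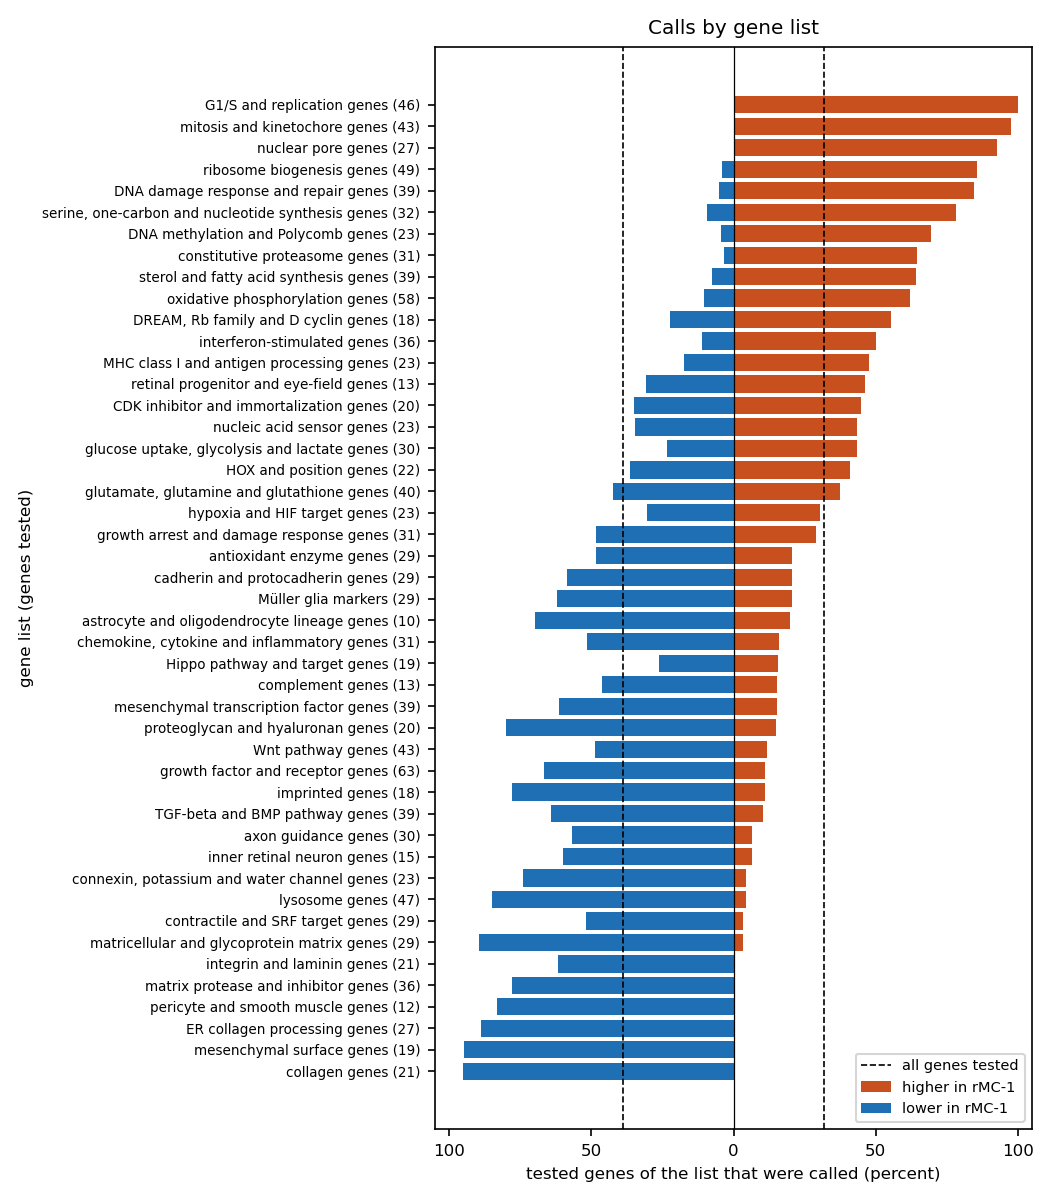
Share of the tested genes of each list (lists with at least 10 tested) called higher (right) and lower (left) in rMC-1, in percent, with the shares of all genes tested (31.9% and 38.9%) as dashed lines. Replication, mitosis, nuclear pore and ribosome biogenesis genes reach farthest to the right, and collagen, mesenchymal surface and matrix genes farthest to the left.

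The most-read genes of primary cultures were those of the extracellular matrix, and most of them fell. Of 21 tested collagen genes, 20 fell and none rose (median -3.93). Collagen genes together made up 4.31% to 11.5% of primary counts and 0.683% to 0.952% of rMC-1 counts. Col1a1, a chain of type I collagen, held 60055, 56079.9, 92014 and 17868 CPM in primary cultures and 3875, 3183 and 2583 in rMC-1 (-4.14 ± 0.49, edgeR adjusted p = 1.52e-05). It stayed among the 10 most-read genes of rMC-1 all the same. Col3a1 went from 20127 to 851 CPM and Col4a1, of basement membranes, from 6158 to 194. Col15a1 had 27099 primary counts and none in rMC-1. Col11a2 did not pass (-0.54 ± 0.37). Col1a2 had only 1.67 CPM in primary cultures, far from its partner chain, and its counts are uncertain. Single libraries moved the size by over 1.5-fold for Col1a2 (-3.96 in all libraries, -4.66 without rMC-1 replicate 1). In other settings a call was made of Col11a2 (-0.48 with only the 7 libraries compared).

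Of 29 matricellular and glycoprotein genes, 26 fell and 1 rose (median -5.16). Fn1, fibronectin, went from 42656 to 1494 CPM (-4.84 ± 0.32) and Sparc from 16645 to 681 (-4.61 ± 0.37). The elastic fibre genes Fbn1 and Ltbp2 went from 2370.4 to 49.3 and from 3799 to 8.64 CPM. Cyr61 (also called Ccn1) did not follow them, at 1232, 1534, 1141 and 1207 CPM in primary cultures and 952, 1948 and 1187 in rMC-1 (0.09 ± 0.49, edgeR adjusted p = 0.875), although its relative Ctgf (Ccn2) fell (-2.73 ± 0.42). Fbln1 was the single rise (1.67 ± 0.58). Of 20 proteoglycan and hyaluronan genes, 16 fell and 3 rose. The leucine-rich proteoglycan gene Bgn went from 8009 to 542 CPM (-3.88 ± 0.39) and Gpc4 from 751 to 0.358, while the syndecan gene Sdc4 rose from 249 to 720.0 (1.53 ± 0.47). Of 36 genes of matrix proteases and their inhibitors, 28 fell and none rose. Mmp2, gelatinase A, held 3226, 3668, 3437 and 1211 CPM in primary cultures and 1.17, 0.309 and 0.448 in rMC-1. Serpine2 went from 711 to 0.176 CPM, Mmp14 from 985 to 99.0 (-3.31 ± 0.29) and Plau from 74.6 to 0.611. A call that rested on single libraries was that of Fbln1 (1.47 without primary replicate 2, 1.54 without primary replicate 3, 1.32 without rMC-1 replicate 1). Without 1 library the size moved by over 1.5-fold for Mmp2 (-12.16 in all libraries, -12.83 without rMC-1 replicate 1) and Plau (-6.98 in all libraries, -9.11 without rMC-1 replicate 1, -6.36 without rMC-1 replicate 3). Other settings ended the call of Sdc4 (1.39 with libraries of one file-name code summed).

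The machinery that folds and modifies collagen in the endoplasmic reticulum was lower too. Of 27 genes, 24 fell and none rose (median -1.13), or 15 and 2 with a median of -0.66 when scaled by library totals. The falls took in the collagen hydroxylase genes and their partners, among them P4ha2 (-3.05 ± 0.31), Plod1 (-2.79 ± 0.39), Fkbp10 (-2.74 ± 0.17) and P3h3 (-3.31 ± 0.23). The general chaperone genes Hsp90b1 (-0.17 ± 0.13) and Calr (-0.21 ± 0.15) did not pass. Integrin and laminin genes fell in 13 of 21 cases and rose in none. Itga8 went from 222 to 0.0754 CPM, Itga11, a collagen receptor, from 1295 to 56.3 (-4.52 ± 0.69) and Itga1 from 188 to 1.88 (-6.63 ± 0.47), whereas the fibronectin receptor gene Itga5 (-0.28 ± 0.15) and the laminin gene Lamc1 (-0.48 ± 0.33) did not pass. The size moved by over 1.5-fold with a library left out for Itga8 (-11.47 in all libraries, -10.69 without primary replicate 3).

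Surface and transcription factor genes of mesenchymal cells fell with the matrix. Of 19 surface genes, 18 fell and none rose (median -6.11). Thy1 went from 566 to 0.228 CPM, Eng from 472 to 0.211, Cdh11 from 587 to 0.132 and Pdgfrb, the receptor for PDGF-B, from 1491 to 86.6 (-4.11 ± 0.40). Of 39 transcription factor genes, 24 fell and 6 rose (median -2.68). Prrx1 held 74.9, 142, 138 and 54.5 CPM in primary cultures and 0.0285, 0.124 and 0.0790 in rMC-1. Alx4 and Lmx1b had 2533 and 1493 primary counts and none in rMC-1. The factors that repress E-cadherin were mixed. Snai1 (-4.93 ± 0.84), Snai2 (-3.21 ± 0.38) and Zeb2 (-1.69 ± 0.42) fell, while Twist1 (-0.13 ± 0.23) and Zeb1 (0.22 ± 0.25) did not pass. The hedgehog effectors Gli2 (1.23 ± 0.43) and Gli3 (1.35 ± 0.21) rose, and so did Tbx18 (1.39 ± 0.51) and Shox2 (2.51 ± 0.43). The call was lost when 1 library was left out for Gli2 (1.03 without primary replicate 3, 1.02 without primary replicate 4, 1.20 without rMC-1 replicate 2) and Tbx18 (1.20 without primary replicate 3, 1.30 without rMC-1 replicate 1). A call appeared with a library left out, that of Zeb1 (0.54 without primary replicate 3). A shift of over 1.5-fold on leaving out 1 library was seen for Thy1 (-11.31 in all libraries, -12.15 without rMC-1 replicate 1). The call did not hold in other settings for Tbx18 (1.44 with only the 7 libraries compared, 1.75 with libraries of one file-name code summed). Other settings made a call of Zeb1 (0.71 with library totals).

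Of 29 contractile and SRF target genes tested, 15 fell, 1 rose and 13 did not pass (median -0.50). With library totals 11 fell and 6 rose (median -0.03). The smooth muscle gene Acta2 went from 5861 to 1676 CPM (-1.81 ± 0.42), Cnn1 from 211 to 0.458, Lmod1 from 170.1 to 0.858 and the coactivator gene Myocd from 30.9 to 0.0320. The cytoskeletal actin gene Actb held 7907, 8313, 7659 and 9729 CPM in primary cultures and 7667, 7938 and 7820.0 in rMC-1 (-0.11 ± 0.16, or 0.36 with library totals, edgeR adjusted p = 0.560), and Actg1 stood at 0.16 ± 0.17. Srf, a factor that drives many of these genes, rose by 1.21 ± 0.18. Its site, the CArG box, was in 3 of 20 promoter windows of the list (15.0%), on either strand, and in 1.17% of all. These 3 windows were those of Srf itself, Actg1 and Ldb3, not those of Acta2, Cnn1, Lmod1 or Myocd. Among 29 cadherin genes 17 fell and 6 rose. Cdh3, P-cadherin, went from 15.0, 6.74, 21.4 and 28.7 CPM to 359, 372 and 356 (4.34 ± 0.73) and Celsr2, of planar polarity, from 8.70 to 254 (4.87 ± 0.73, or 5.80 without primary replicate 4). Fat1 fell from 5579 to 207 CPM (-4.75 ± 0.29). Single libraries moved the size by over 1.5-fold for Lmod1 (-7.59 in all libraries, -8.31 without rMC-1 replicate 2) and Myocd (-9.71 in all libraries, -9.08 without primary replicate 1). In other settings a call was made of Actg1 (0.63 with library totals).

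Genes of TGF-beta and BMP signalling and of axon guidance were mostly lower as well. Wnt pathway genes also fell more often than they rose, but most were not called lower. Hippo pathway genes had a median near that of all genes. Of all genes tested, 38.9% fell and 31.9% rose (median -0.15). Of 39 genes of the TGF-beta and BMP pathways, 25 fell and 4 rose (median -1.50). The ligand genes Tgfb1, Tgfb2 and Tgfb3 changed by -1.57 ± 0.34, -1.65 ± 0.23 and -2.66 ± 0.28, and the receptor genes Tgfbr1 and Tgfbr2 by -1.50 ± 0.16 and -1.74 ± 0.12. Smad3 rose slightly (0.47 ± 0.17). The BMP antagonist gene Grem1 held 14001, 18962, 12223 and 6375 CPM in primary cultures and 3.73, 1.34 and 2.08 in rMC-1, and Nog went from 84.2 to 0.0408 CPM. Bmp4 (-0.09 ± 0.30) and the BMP target Id1 (0.76 ± 0.32) did not pass, and Id3 fell (-0.97 ± 0.24). Of 43 Wnt pathway genes, 21 fell, 5 rose and 17 did not pass (median -1.22). Wnt5a went from 48.4 to 0.0190 CPM and its receptor gene Ror2 from 31.6 to 0.0612. Among Frizzled receptors Fzd1 fell (-2.86 ± 0.21) and Fzd6 rose (2.98 ± 0.32), and Ctnnb1, beta-catenin, did not pass (-0.23 ± 0.11). Hippo pathway genes were mostly not past (11 of 19), with Tead2 higher (2.43 ± 0.23) and Yap1 lower (-0.88 ± 0.12). The Hippo list had 3 higher and 5 lower (median -0.05), but 9 and 4 with library totals. Axon guidance genes fell in 17 of 30 cases and rose in 2 (median -1.50). The netrin receptor gene Unc5c went from 252 to 0.0517 CPM and the neuropilin gene Nrp1 from 189 to 10.7 (-4.15 ± 0.80). With 1 library left out there was no call for Smad3 (0.35 without primary replicate 1). With fewer libraries a call was made of Id1 (0.87 without primary replicate 3, 1.02 without rMC-1 replicate 1, 0.94 without rMC-1 replicate 3) and Ctnnb1 (-0.28 without primary replicate 1). Without 1 library the size moved by over 1.5-fold for Nog (-10.86 in all libraries, -10.16 without primary replicate 1), Ror2 (-8.99 in all libraries, -8.38 without rMC-1 replicate 3) and Unc5c (-12.19 in all libraries, -11.34 without primary replicate 2). Other settings ended the call of Id3 (-0.48 with library totals). Other settings made a call of Id1 (0.76 with DESeq2, 1.23 with library totals, 0.78 with no filter, 0.82 with only the 7 libraries compared, 0.76 with libraries of one file-name code summed) and Ctnnb1 (-0.24 with DESeq2, -0.25 with a filter of over 1 CPM in at least 3 libraries).

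Of 63 growth factor and receptor genes, 42 fell and 7 rose (median -1.97). Fgfr1 held 62.3, 175, 141 and 145 CPM in primary cultures and 0.997, 0.144 and 0.211 in rMC-1. Fgfr2 went from 176 to 1.96 CPM (-6.50 ± 0.89), while Fgfr3 rose from 53.7 to 213 (1.99 ± 0.49, or 2.64 without primary replicate 4). Igf2 went from 29.1 to 0.00878 CPM, the binding protein genes Igfbp3 from 395 to 0.116 and Igfbp7 from 711 to 18.9, and the receptor gene Igf1r changed by -1.76 ± 0.18. Erbb2 rose by 1.98 ± 0.21 and Pdgfb by 3.57 ± 1.20 (4.54 without primary replicate 4). The trophic factor gene Bdnf did not pass (-0.88 ± 0.38), and Vegfa, the angiogenic factor that Müller cells release, stood at 172 to 247 CPM in primary cultures and 91.8 to 161 in rMC-1 (-0.70 ± 0.40, edgeR adjusted p = 0.132). A call that rested on single libraries was that of Pdgfb (3.28 without rMC-1 replicate 2). Leaving out 1 library made a call of Bdnf (-1.04 without primary replicate 2). The size moved by over 1.5-fold with a library left out for Fgfr2 (-7.64 without rMC-1 replicate 1), Fgfr1 (-8.23 in all libraries, -9.45 without rMC-1 replicate 1) and Igfbp3 (-11.77 in all libraries, -11.13 without rMC-1 replicate 2). In other settings a call was made of Bdnf (-0.88 with DESeq2, -0.82 with only the 7 libraries compared) and Vegfa (-0.64 with only the 7 libraries compared).

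Interferon-stimulated genes were called higher more often than lower, 18 against 4 of 36 (median 0.78). With library totals the counts were 21 and 2. An interferon response element (ISRE, searched on either strand) was in 17 of 27 promoter windows of these genes (63.0%) and in 2.79% of all. It is shown in capitals in the 120 bases before the start of 3 genes that rose and 1 that fell, at Ifih1 chr3:67683969-67684088 (minus strand), Oas1b chr12:41395853-41395972 (minus strand), Gbp2 chr2:234005607-234005726 (plus strand) and Irf7 chr1:205800024-205800143 (minus strand) of GRCr8.
Ifih1: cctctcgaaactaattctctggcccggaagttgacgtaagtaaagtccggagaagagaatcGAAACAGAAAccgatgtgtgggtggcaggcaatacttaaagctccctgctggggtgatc
Oas1b: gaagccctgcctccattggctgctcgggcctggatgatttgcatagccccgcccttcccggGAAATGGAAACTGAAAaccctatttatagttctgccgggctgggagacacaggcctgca
Gbp2: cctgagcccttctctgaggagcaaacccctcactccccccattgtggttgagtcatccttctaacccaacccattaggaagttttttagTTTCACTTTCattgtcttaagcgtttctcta
Irf7: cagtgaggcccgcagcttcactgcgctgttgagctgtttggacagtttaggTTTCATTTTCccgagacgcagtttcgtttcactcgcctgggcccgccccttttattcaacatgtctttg
Ifih1, the RNA sensor MDA5, rose from 10.9 to 38.5 CPM (1.82 ± 0.23), Oas1b by 2.16 ± 0.53 and the GTPase gene Gbp2 from 18.5 to 93.4 (2.34 ± 0.45). Irf7 held 18.7, 22.5, 6.48 and 11.6 CPM in primary cultures and 5.95, 3.98 and 3.45 in rMC-1 (-1.73 ± 0.39), so genes that hold the same letters went both ways. Isg15 rose by 3.04 ± 0.50, or 3.73 without primary replicate 4. The transcription factor gene Irf1 rose (1.77 ± 0.68) and 14 of the list did not pass. No counts of Ifnb1 were present in any of the 7 libraries. The call was lost when 1 library was left out for Irf1 (1.51 without primary replicate 1, 1.62 without primary replicate 2, 1.83 without primary replicate 3, 1.87 without rMC-1 replicate 1, 1.80 without rMC-1 replicate 2, 1.89 without rMC-1 replicate 3).

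Genes of MHC class I presentation had 11 higher and 4 lower of 23 (median 0.53). The immunoproteasome gene Psmb9 rose from 2.45 to 27.2 CPM (3.47 ± 0.35) and the activator gene Psme2 from 17.9 to 85.3 (2.25 ± 0.13). RT1-A2 held 26.1, 27.0, 32.6 and 50.9 CPM in primary cultures and 128, 150.3 and 125 in rMC-1 (1.98 ± 0.27). Rat class I genes are near-identical copies, so their counts are uncertain. B2m did not pass (-0.31 ± 0.14). Of 31 chemokine, cytokine and inflammatory genes, 16 fell and 5 rose (median -1.69). Il6 went from 44.4 to 0.110 CPM, Ptgs2 from 212 to 8.38 (-4.66 ± 0.83) and the IL-33 receptor gene Il1rl1 from 1216 to 10.4 (-6.87 ± 1.52). Its ligand Il33 rose, from 7.41, 2.10, 24.1 and 59.8 CPM to 241, 318 and 230.1 (3.50 ± 0.89, or 4.56 without primary replicate 4). Cxcl10 rose from 0.500 to 23.3 CPM. Of 13 complement genes 6 fell and 2 rose. A call appeared with a library left out, that of B2m (-0.36 without primary replicate 1). A shift of over 1.5-fold on leaving out 1 library was seen for Il1rl1 (-6.11 without primary replicate 3, -7.49 without rMC-1 replicate 1) and Cxcl10 (5.55 in all libraries, 7.00 without primary replicate 4). Other settings made a call of B2m (-0.31 with DESeq2, -0.33 with a filter of over 1 CPM in at least 3 libraries).

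**Figure D5:**
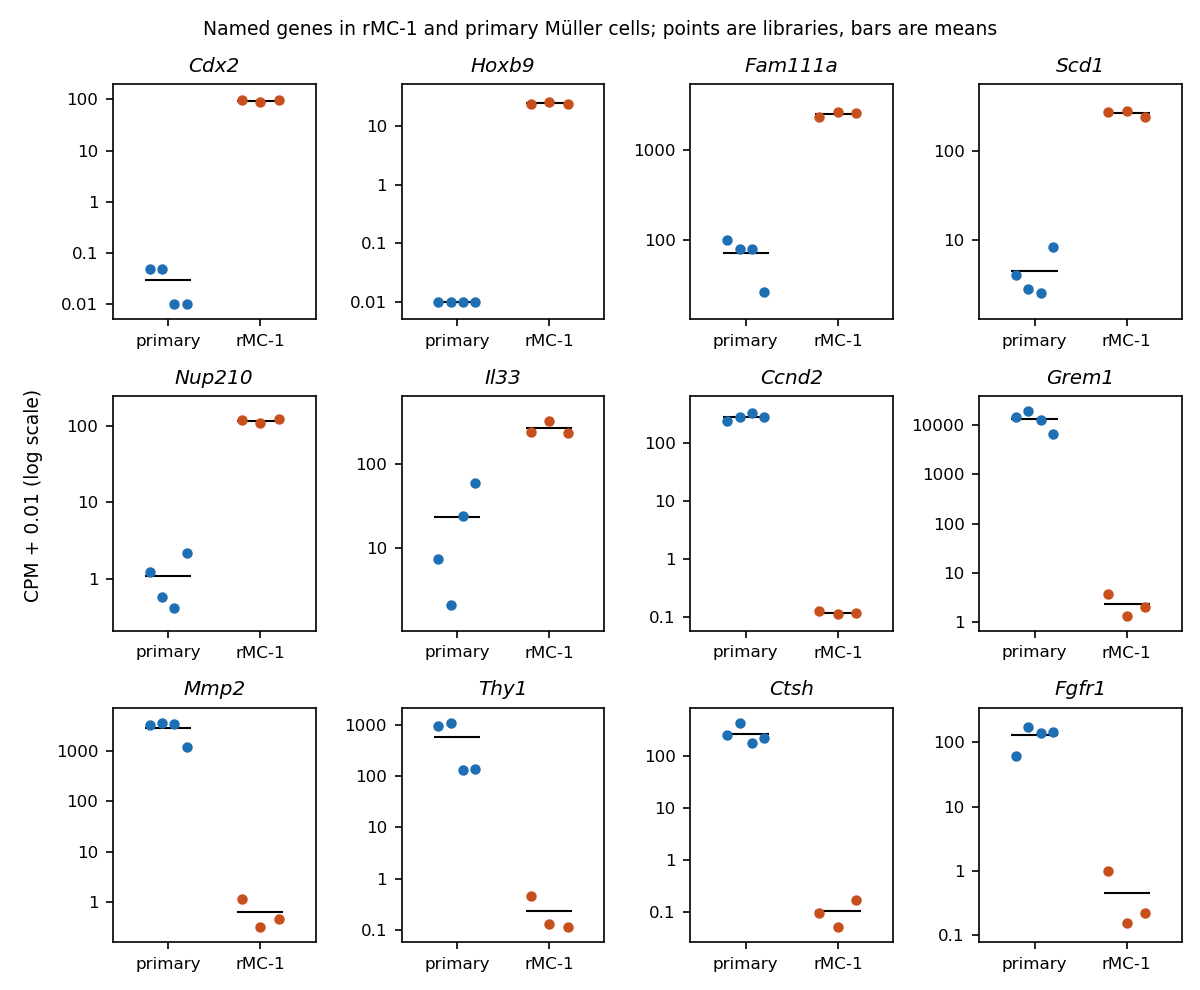
CPM of 12 named genes in each of the 4 primary and 3 rMC-1 libraries, on a log scale after adding 0.01 CPM, with a bar at the mean of each group. Cdx2, Hoxb9, Fam111a, Scd1, Nup210 and Il33 are higher in all rMC-1 libraries, and Ccnd2, Grem1, Mmp2, Thy1, Ctsh and Fgfr1 lower.

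Genes of lipid synthesis were mostly higher. Of 39 sterol and fatty acid synthesis genes, 25 rose and 3 fell (median 1.30). Scd1, a stearoyl-CoA desaturase, held 3.98, 2.77, 2.50 and 8.24 CPM in primary cultures and 282, 285 and 247 in rMC-1 (5.96 ± 0.84), and its relative Scd2, among the 10 most-read genes of rMC-1, went from 334 to 2669.7 CPM (3.00 ± 0.45). The desaturase genes Fads1 and Fads2 rose by 3.70 ± 0.87 and 5.43 ± 0.66. In the cholesterol pathway Cyp51 rose by 2.58 ± 0.38, Dhcr7 by 3.03 ± 0.40 and the regulator gene Srebf2 by 2.13 ± 0.29. Me1, which supplies NADPH, fell (-2.47 ± 0.12). Serum, the outside source of lipid, was lower in rMC-1 cultures by design, and its part in these changes cannot be told apart. Lysosome genes fell in 40 of 47 cases and rose in 2 (median -1.57). Lamp1 held 1361, 1505, 1263 and 1165 CPM in primary cultures and 195, 173 and 186 in rMC-1 (-2.84 ± 0.13), cathepsin H (Ctsh) went from 267 to 0.0949 CPM and Npc2, which exports cholesterol from lysosomes, from 896 to 95.7 (-3.23 ± 0.19). Tfeb, the factor that activates lysosome genes, rose slightly (0.91 ± 0.21).

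Genes of serine, one-carbon and nucleotide synthesis rose in 25 of 32 cases and fell in 3 (median 1.49). Psat1, of serine synthesis, rose from 38.7 to 447 CPM (3.53 ± 0.31), Pfas, of purine synthesis, by 2.43 ± 0.22 and Shmt2 by 2.03 ± 0.18, while Ctps1 fell (-1.10 ± 0.27). Glutamate, glutamine and glutathione genes had 15 higher and 17 lower of 40, 16 and 12 with library totals, and 17 and 16 without primary replicate 4. Slc7a11, which imports cystine for glutathione, held 16.2, 16.8, 10.6 and 24.9 CPM in primary cultures and 101, 151 and 252 in rMC-1 (3.29 ± 0.41), and the glutamine carrier gene Slc38a1 rose by 3.89 ± 0.62 (4.60 without primary replicate 1). The glutathione peroxidase gene Gpx1 fell (-2.18 ± 0.26). The secreted peroxidase gene Gpx3 went from 265 to 0.0749 CPM and Gsta1 from 57.7 to 0.00878. Of 29 antioxidant enzyme genes, 14 fell and 6 rose. Nqo1, a target of NRF2, held 931, 420.4, 181 and 3399 CPM in primary cultures and 26.2, 33.1 and 32.2 in rMC-1 (-5.34 ± 1.01, or -4.07 without primary replicate 4), and Hmox1 fell from 669 to 43.2 (-3.95 ± 0.36). Slc7a11 and Nqo1 are both NRF2 targets and went opposite ways. Single libraries moved the size by over 1.5-fold for Gpx3 (-11.72 in all libraries, -12.31 without rMC-1 replicate 1, -11.12 without rMC-1 replicate 3).

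Of 58 oxidative phosphorylation genes, 36 rose and 6 fell, with a median of only 0.45, or 0.92 with library totals. Atp5b, of ATP synthase, rose from 789.7 to 1398 CPM (0.82 ± 0.12) and Cycs, cytochrome c, by 1.81 ± 0.15. The muscle isoform gene Cox6a2 fell from 20.1 to 0.0816 CPM. Glycolysis genes had 13 higher and 7 lower of 30 (median 0.01). The lactate carrier genes diverged, with Slc16a1 (MCT1) from 70.8 to 268 CPM (1.92 ± 0.29) and Slc16a3 (MCT4) from 29.4 to 0.203. Ldha did not pass (0.47 ± 0.32). Of 23 hypoxia genes 7 rose and 7 fell. With library totals 1 fell, and 4, 4, 2 and 3 fell without primary replicate 3 and rMC-1 replicates 1, 2 and 3. With fewer libraries a call was made of Ldha (0.90 without primary replicate 4). Without 1 library the size moved by over 1.5-fold for Slc16a3 (-7.20 in all libraries, -8.19 without rMC-1 replicate 1). In other settings a call was made of Ldha (0.91 with library totals).

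Genes of ribosome assembly and nuclear transport were mostly higher. Of 49 ribosome biogenesis genes, 42 rose and 2 fell (median 0.88), among them Fbl (2.10 ± 0.23) and Gar1 (2.21 ± 0.26). Of 27 nuclear pore genes, 25 rose and none fell (median 1.51). Most rises were moderate, such as that of Nup205 (2.24 ± 0.14). Nup210, a membrane nucleoporin made in only some tissues, stood out at 1.22, 0.561, 0.402 and 2.16 CPM in primary cultures and 119, 110.0 and 123 in rMC-1 (6.76 ± 0.48). Constitutive proteasome genes rose in 20 of 31 cases and fell in 1 (median 0.49).

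Imprinted genes, which are read from 1 parental copy, were mostly lower. Of 18 tested, 14 fell and 2 rose (median -6.18). Grb10, a growth inhibitor, held 344, 342, 362 and 159 CPM in primary cultures and 0.114, 0.0206 and 0.0790 in rMC-1. Peg3 went from 115 to 0.0503 CPM, Nnat from 213 to 0.162, Ndn from 50.8 to 0.00949 and Igf2 as given above. The gene listed as RGD1566401, a synonym of Meg3, had 1879 primary counts and none in rMC-1. Mest rose from 3.18 to 22.6 CPM (2.83 ± 0.75), Impact did not pass (0.24 ± 0.18) and Gnas fell (-0.58 ± 0.11). Germ cell genes were near absent from both groups, with 21 of 26 not tested for low counts. Of connexin, potassium and water channel genes 17 of 23 fell and 1 rose. Aqp1 went from 552 to 70.6 CPM (-2.97 ± 0.77, or -2.10 without primary replicate 3) and Gja1, connexin 43, from 573 to 195 (-1.55 ± 0.30), while Gjc1, connexin 45, rose (2.65 ± 0.39). Of Y-linked genes, Eif2s3y had 1.46, 0.711, 1.12 and 18.7 CPM in primary libraries and no counts in rMC-1 (edgeR adjusted p = 0.00232), Ddx3y had 10 and 12 counts, and Sry had none. The size moved by over 1.5-fold with a library left out for Nnat (-10.36 in all libraries, -9.24 without primary replicate 1). The call did not hold in other settings for Gnas (-0.11 with library totals). Other settings made a call of Impact (0.71 with library totals).

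Markers of most other cell types that a retinal culture can hold were mostly lower in rMC-1, though several lists rest on few tested genes. Their part in the falls above was not tested. Of 12 pericyte and smooth muscle genes 10 fell and none rose, and their summed level was 10268 to 15823 CPM in primary libraries and 1510.4 to 3727 in rMC-1. Of 15 inner retinal neuron genes 9 fell and 1 rose, with 399.6 to 2008 and 139 to 197 CPM, most of it from Thy1, Stmn2, Uchl1 and Tubb3. Endothelial genes fell in 5 of 7 cases (36.1 to 783 and 5.35 to 8.83 CPM, led by Eng), and Cdh5 and Cldn5 had no counts in these 7 libraries. Microglia genes fell in 3 of 5 (4.29 to 27.8 and 2.69 to 4.27 CPM), with Aif1 at 8 and 0 counts and C1qa at 43 and 0. Without primary replicate 1 1 microglia gene fell, as with only the 7 libraries compared. Astrocyte and oligodendrocyte genes fell in 7 and rose in 2 of 10 (571 to 1142 and 415 to 468 CPM). Of photoreceptor and of pigment cell genes, 2 of 4 tested fell in each list and none rose. Photoreceptor genes summed to 8.14 to 24.2 and 6.00 to 9.52 CPM, which overlap, and pigment cell genes to 21.7 to 42.0 and 13.3 to 15.5, with Rpe65 at 1 and 0 counts. Low counts left 13 photoreceptor, 6 pigment cell, 12 microglia and 6 endothelial genes untested.

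The genes with the largest falls included several with almost no rMC-1 counts. Gldn and Brinp2 had 10706 and 8965 primary counts and none in rMC-1, at least 4467-fold and 3740.3-fold lower. The fitted change of Gldn went from -14.76 to -12.96 without primary replicate 4, so much of its primary level came from that library. Rcan2, a calcineurin regulator, had 9524 counts against 1, a ratio of 11921 (95% counting interval 2139 to 470886). For Rgs16 the ratio was 8537 (1532 to 337258), for Slc2a13 9242 (1658 to 365091) and for the adhesion gene Cntn2 7928 (2712 to 38446). These intervals cover counting error only.

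Some of these genes were set beside SIRMu-1, the other line, in the same fit. It called 63.2% of all genes between the lines. Cdkn1a stood at 419 CPM in SIRMu-1, and rMC-1 minus SIRMu-1 was -3.64 ± 0.41 (edgeR adjusted p = 1.60e-05). For Ccng1 it was -3.18 ± 0.27 from 869 CPM and for Aen -3.42 ± 0.23 from 83.6. Mcm2 was 2.53 ± 0.21 higher than in SIRMu-1 (97.9 CPM) and Cdk1 2.09 ± 0.41 (79.1 CPM). Col1a1 stood at 36743 CPM in SIRMu-1 (-3.52 ± 0.46). Cdx2 and Hoxb9 stood at 0.0232 and 0 CPM there. Each of these differences passed the threshold. Serum, passage, donor age and, in part of the SIRMu-1 libraries, the drugs in the medium also differ between the lines, and cannot be told apart from the route of immortalization.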

How the data were processed

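Messenger RNA was sequenced in 4 primary and 3 rMC-1 libraries, with 5 SIRMu-1 libraries in the same fit. The deposited values are read counts per gene, 1 table per library. Per the submitters' processing notes the tools were cutadapt 1.8.1, STAR 2.5.3a and edgeR 3.18.1, and the build was rn6. No source used here gives the strand setting, so reads of a gene and its antisense partner cannot be told apart. Reads mapping to several places were set aside in the deposited tables, which makes genes with near-identical copies uncertain. Rows that name no gene were left out of library sizes (reads outside annotated genes, 24.2% to 25.8% in primary and 27.5% to 30.3% in rMC-1 libraries).

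Counts were fitted with edgeR 4.0.16 (R 4.3.3): TMM scaling, a filter on low counts (filterByExpr) that kept 11321 of 17315 genes, a mean for each of 3 groups and 12 libraries (residual degrees of freedom 9), the quasi-likelihood test (two-sided) and Benjamini-Hochberg adjustment over all genes tested, called at 0.05. Standard errors are the log2 fold change divided by the root of F. Where a group has few counts, as for Ccnd2 in rMC-1, they can be smaller than counting error alone. Levels are CPM on the TMM scale, per library or as group means. The labels number the replicates without saying whether they came from separate animals or cultures, so p-values measure only the spread between these libraries, which may be technical. Primary replicates 1 and 2 share the file-name code P1, and rMC-1 replicates 1 and 2 the code R22. What the codes mean is not stated, so libraries that share one may not be independent. Simulated counts held 11167 genes, of which 99 changed by 2-fold and 100 by 4-fold, and the fit recovered 29.3% and 87% of them. Where a group had no counts, a fold is given against a floor of 3 counts over the group. Intervals are exact, at 95%.

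Members and the 53 gene lists were chosen with earlier results of these data known. Named genes were those marked in a list, up to 3 called per list and direction with the largest change (mean of at least 10 CPM in the higher group, no overlap), the 12 largest rises and falls of all (at least 50 CPM) and the 10 most-read genes of each group. Of 280 genes named, 90 fall outside this rule and were chosen after their values were seen. Alternatives were DESeq2 1.42.0, other scalings, other filters, a replicate block, fewer libraries and sums of libraries that share a file-name code. Reading the glial list without primary replicate 4 was chosen after seeing the data. Beside levels in CPM, shifts on leaving out a library are given where both groups keep more than 3 counts, since a fitted change below that depends on the prior count. Some genes of the lists are counted in them and not reported here by name.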

Additional observations from a re-analysis of the deposited data

Results flagged for a closer look

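In the group of 4 primary libraries, 1 library stood apart from the other 3 for 29 of 266 named genes, by Dixon's 95% critical value for 4 values (the gap to the nearest library over the range). For independent normal values about 1 in 20, or 13.3 genes, would be past it. CPM need not be normal, genes are not independent, and some were chosen after their values were seen. No comparison with chance is therefore drawn. The library was primary replicate 4 for 16 of them, replicate 1 for 6, replicate 3 for 4 and replicate 2 for 3. Primary replicate 4 was the highest for Aen at 138, Cdkn1a at 1963, Cdkn2a at 163, Eif2s3y at 18.7, Fads2 at 8.42, Foxa2 at 0.176, Hoxc10 at 0.132, Hoxc9 at 0.0441, Ldha at 378, Mdm2 at 699, Pdgfb at 4.36 and Sox2 at 8.15 CPM. For Foxa2, Hoxc10 and Hoxc9 the other 3 libraries had no counts, so any count (4, 3 and 1 here) sets the ratio to 1 and the test says nothing. Without such genes 26 genes are left, 13 of them with replicate 4. Primary replicate 4 was the lowest for Fbn1 at 1271, Grb10 at 159, Ltbp2 at 2448 and Plod1 at 197 CPM. Primary replicate 1 was the highest for Acta2 at 8634, Ccnb1 at 5.88, Ccnd3 at 311, Col15a1 at 808, Lmnb1 at 9.15 and Rgs16 at 112 CPM. Primary replicate 3 was the highest for Ccne2 at 6.75, Itga8 at 501, Rcan2 at 226 and Tnfrsf10b at 33.1 CPM. Primary replicate 2 was the highest for Cntn2 at 478 and Tgfbr2 at 97.7 CPM. Primary replicate 2 was the lowest for Apoe at 91.8 CPM. 

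Reads outside annotated genes were in no comparison of gene levels. They made up 30.3% of the reads in the highest rMC-1 library, above the range of the primary libraries (24.2% to 25.8%).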

How the results depend on the processing

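The counts of genes called higher and lower, 3614 and 4403, were 3661 and 4523 with DESeq2 (56 genes without an adjusted p), 3608 and 4411 with RLE factors and 5077 and 3130 with library totals in place of TMM. Genes called and at least 2-fold higher then came to 3302. Leaving out 1 library gave 3456 to 3605 higher and 3879 to 4299 lower, and past 2-fold 1981 to 2162 and 2950 to 3113. With libraries of one file-name code summed they were 3652 and 3997, with a replicate block 3668 and 4351, and with only the 7 libraries compared 3711 and 4062 of 11181 genes. Same-numbered libraries deviated together only weakly (r = 0.07, 0.04 and 0.06 across genes for numbers 1 to 3). Other pairs ran from -0.09 to 0.04. With so few libraries the check cannot settle whether the numbers pair libraries, and they were not taken to. Of the genes named, the block ended the call of Smad3 (0.50) and made calls of Bdnf, Ldha (0.76), Sox2 (4.73) and Vegfa (-0.92). All 42 lists with a margin of at least 3 calls kept their leading direction under each alternative. With only the bases before the start, CHR was in 50% of mitosis promoters, 9.99% of all, 11.2% of genes called higher and 9.16% of those lower. CCAAT was in 35.2%, 38.5% and 32.9% of all, higher and lower genes, and E2F in 3.29%, 5.37% and 1.80% of these and 25.7% of replication genes.

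Changes of sign were those of genes that had not passed, and their cause was not tested. With library totals Actb stood at 0.36, B2m at 0.16, Bmp4 at 0.38, Calr at 0.26, Ctnnb1 at 0.24, Hsp90b1 at 0.31, Itga5 at 0.20, Lamc1 at 0.033, Tubb3 at 0.10, Twist1 at 0.34 and Zwint at 0.13. With the replicate block Cyr61 stood at -0.032 and Twist1 at 0.024, and with libraries of one file-name code summed Bmp4 at 0.056. With 1 library left out at a time Bmp4 ran from -0.30 to 0.29, Cdk6 from -0.14 to 0.40, Cyr61 from -0.18 to 0.36, Twist1 from -0.31 to 0.011 and the median of pigment cell genes from -8.89 to 0.052, the last without primary replicate 2. The median of photoreceptor genes was 0.89 with no filter and that of germ cell genes 2.01 with a filter at 1 CPM. The lowest library held 22582345 gene counts, and a change of 2-fold was recovered in 29.3% of simulated cases. There only 99 genes changed by 2-fold and 100 by 4-fold, against 70.8% of real genes called, so the adjustment was stricter. That share is thus no estimate of the power of the real comparison. Genes that did not pass may still differ by as much as their standard errors allow.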
